A study of Mus musculus with 12 samples.

Results

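Interferon response genes were followed across hearts and kidneys of mice that lack mENT1, the membrane carrier of adenosine and other nucleosides encoded by Slc29a1. The group was fixed by name: 30 genes that cells switch on after interferon, of which 29 had at least 1 probe on the array among 27670 genes or names, and 45 probes among 41174. Xaf1 had none. By role they are 12 antiviral effectors, 6 genes of the Oas family, 6 interferon-inducible GTPases and 6 sensors and transcription factors.

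The study hybridised RNA from 4 groups of FVB/N mice, each with 3 arrays marked a, b and c: hearts of mENT1 knockouts, hearts of wild types, kidneys of mENT1 knockouts and kidneys of wild types. Each array carried a single sample labelled with Cy3. The labels give neither age, sex nor treatment, nor whether the letters stand for separate animals, so the p-values measure the spread between these arrays. The tissues were whole hearts or kidneys as far as the labels say, and in such RNA fewer cells of a type and less RNA per cell cannot be told apart.

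As background, type I interferons bind a receptor whose kinases activate Stat2, which joins Irf9 in a complex that binds an interferon-stimulated response element before the responding genes. Interferon gamma acts through gamma-activated sites and is the main inducer of the GTPase families. The products cut, trap or modify viral RNA and protein, and several of them, such as Irf7 and the RNA sensors, feed back on interferon production itself.

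Many promoters of the group, though not all, hold a motif linked to interferon. RefSeq promoters of build GRCm38.p6 were at hand for 24 of the 30 genes, each window running from 250 bases before the start to 50 after it. The core of the response element, searched on both strands as GAAA, any 2 bases and GAAA again, with overlapping matches allowed, was found for 14 of those 24 genes (58.3%), against 3.99% of all 27025 genes and 3.44% of all 32851 promoters. The gamma-activated site, TTCNNNGAA, was found for 6 of 24 (25%), against 9.55% of all genes. A match is a run of letters and not a site shown to bind a factor. The stretches below were chosen because they hold the core upstream of a start in 3 of the roles, and the capitals mark the core, read as TTTC, 2 bases and TTTC where it lies on the other strand.
Isg15: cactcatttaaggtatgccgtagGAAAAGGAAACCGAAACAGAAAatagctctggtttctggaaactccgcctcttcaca
Ifit1: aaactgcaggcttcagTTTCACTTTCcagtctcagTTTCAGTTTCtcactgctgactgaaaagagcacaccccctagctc
Bst2: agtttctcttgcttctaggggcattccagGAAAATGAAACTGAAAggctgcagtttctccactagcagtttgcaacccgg
Rsad2: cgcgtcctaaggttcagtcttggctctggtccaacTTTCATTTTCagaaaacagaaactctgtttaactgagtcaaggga
Oas1a: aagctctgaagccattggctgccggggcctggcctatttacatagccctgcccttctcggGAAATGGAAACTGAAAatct
Oas3: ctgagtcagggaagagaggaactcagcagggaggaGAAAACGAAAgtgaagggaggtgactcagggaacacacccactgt
Gbp2: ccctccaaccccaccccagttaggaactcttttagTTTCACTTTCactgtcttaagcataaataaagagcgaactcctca
Igtp: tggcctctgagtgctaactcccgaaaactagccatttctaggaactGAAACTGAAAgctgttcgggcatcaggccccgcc
Irgm1: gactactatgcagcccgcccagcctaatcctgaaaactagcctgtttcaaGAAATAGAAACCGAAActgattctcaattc

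Isg15, which encodes a ubiquitin-like modifier, held 3 overlapping cores, the nearest starting 66 bases before the start (chr4:156200840-156200919, minus strand). The Ifit1 pair stood in the stretch chr19:34640769-34640848 on the plus strand, and the Bst2 pair in chr8:71537552-71537631 on the minus strand. Rsad2 (chr12:26456528-26456607, minus strand) and Oas3 (chr5:120777690-120777769, minus strand) each held 1. The cores of Oas1a (chr5:120907526-120907605, minus strand), Igtp (chr11:58199476-58199555, plus strand) and Irgm1 (chr11:48871421-48871500, minus strand) lay closest to the start among the cores upstream of it, with their nearest copies at 14, 34 and 24 bases. That of Gbp2 (chr3:142620569-142620648, plus strand) began 59 bases upstream. No match was present in these windows for Ifi44, Ifi47, Irf1, Irf7, Irf9, Ifi35, Ifit2, Oasl1, Oasl2 or Xaf1.

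**Figure D1:**
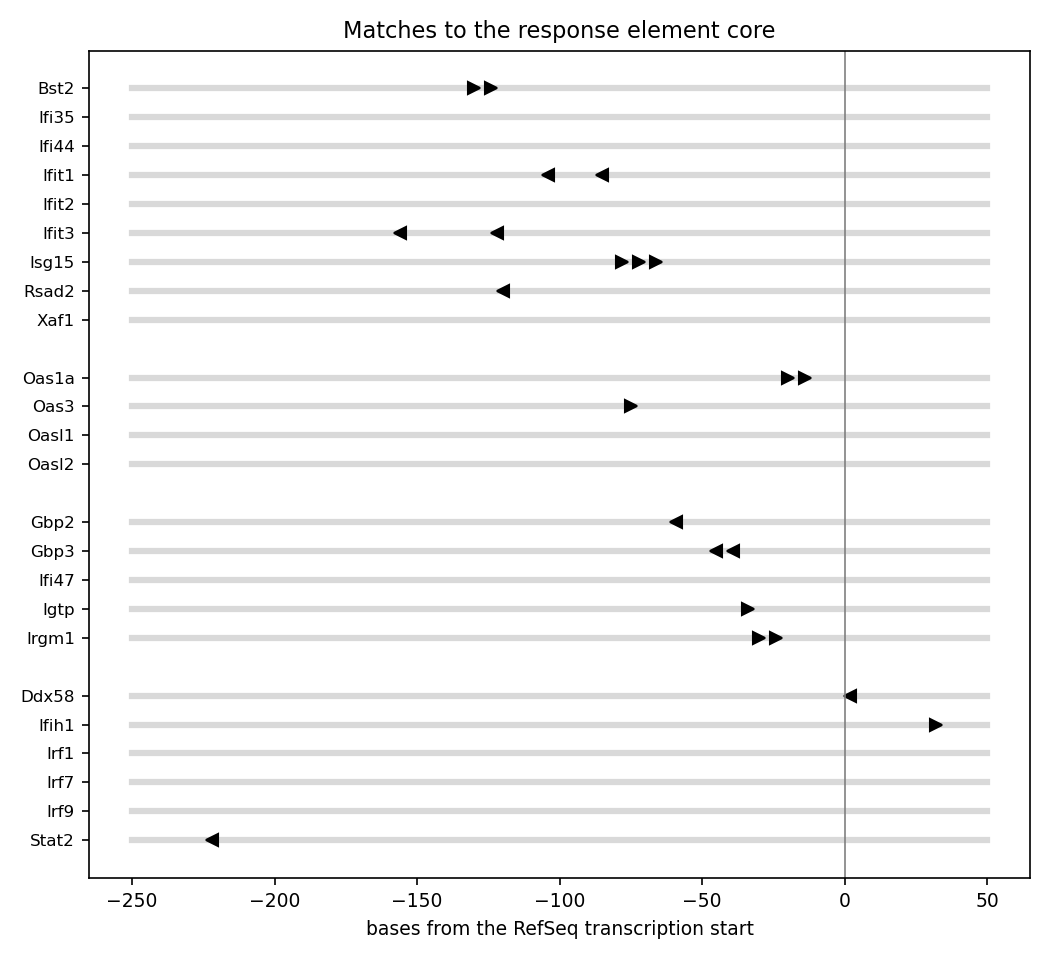
Positions of the response element core in the promoter windows of the 24 interferon response genes with a RefSeq entry, in bases from the start (x axis, the start at 0), with genes grouped by role from top to bottom. Grey bars are the windows from 250 bases before to 50 after the start, and arrowheads give the strand of each match relative to the gene; 14 genes hold at least 1 match, and for Ddx58 and Ifih1 it lies after the start.

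Values below are log2 signals relative to the 75th percentile of each array, and a change is the knockout mean less the wild type mean, ± its standard error (SE) in limma, with n = 3 arrays in each group unless stated. Genes with an adjusted p under 0.05 are those said to be called, and each gene was read from its brightest probe above background. The 75th percentile of intensity ran from 464.5 to 940.4 between arrays. Every direction rests on the labels of the scanner files, by which Slc29a1 was lower in knockout hearts (-2.08 ± 0.26, adjusted p of 0.0362 by limma) and kidneys (-2.85 ± 0.16, 0.00547). Each column of the deposited table of processed values followed the array of the other genotype at a correlation of at least 0.9999. Xist, the RNA that silences 1 X chromosome in females, gave signal on knockout hearts a and b and knockout kidney a only, so mice of both sexes are among the knockouts. Heart muscle genes (8 of 8 above background on every heart) and kidney genes (8 of 8 on every kidney) matched the labelled tissue. All knockout hearts shared 1 slide and all wild type hearts another, so for hearts the slide and the genotype cannot be told apart. A probe cannot separate near-identical copies of a gene, which the Oas1, Ifit3 and GTPase families have.

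In knockout hearts the interferon response genes lay mostly above wild type, but 1 of them passed the test. Positive changes were found for 22 of 29 genes, where 42.2% of all 17483 genes tested were positive, and the median was 0.24, against -0.07 for all genes. Oas1d was the member called, and no member was called lower, though 7 had negative changes. Oas1d and Oas3 entered the test only through the knockout hearts, where they are brighter, which favours a difference. With no filter at all the adjusted p of Oas1d was 0.0193 by limma. Among the 27 members above background on every heart, 20 were positive, the median was 0.22 and 0 were called, with 9 at an unadjusted p under 0.05. The share of all genes called was 0.664% (0.578% higher and 0.0858% lower). At an unadjusted p under 0.05, 11 members were higher and 0 lower, where 15.7% of all genes passed that mark and 7.22% were higher. The 3 knockout and 3 wild type hearts did not overlap for 12 members, all higher in knockouts, where 22.1% of all genes did not overlap and 9.13% were higher. Under median scaling all heart genes centred on -0.23, and 18 of 29 members were positive with a median of 0.07, so the shift is one relative to other genes. With quantile normalization 24 were positive. Blocking on the letters as replicate pairs, 55 genes were called in place of 116, Oas1d being one, and 8 members had an unadjusted p under 0.05 in place of 11. The members' median was 0.15 without knockout heart c and 0.34 without knockout heart a or without wild type heart b.

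**Figure D2:**
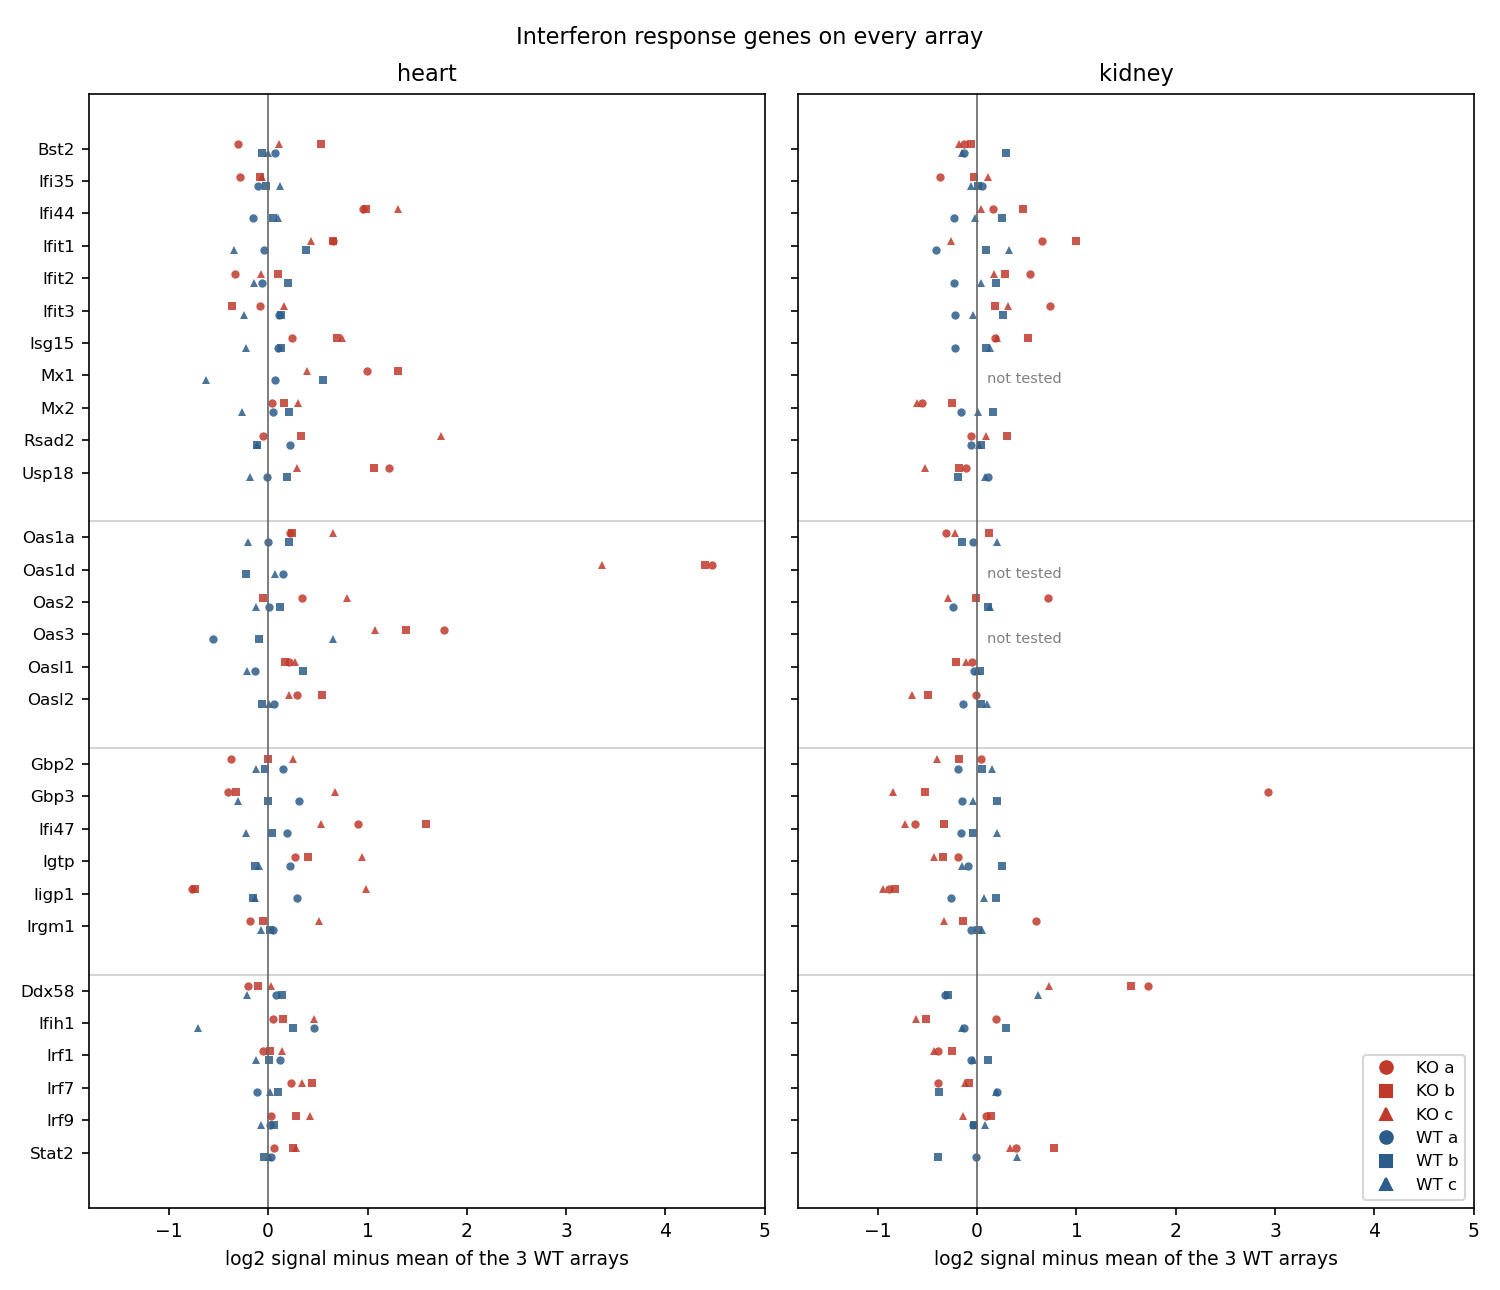
Log2 signal of each interferon response gene on every array, minus the mean of the 3 wild type arrays of its tissue (x axis), for heart (left) and kidney (right), with genes grouped by role from top to bottom. Red marks are knockouts and blue marks wild types, with a circle, square or triangle for letters a, b and c; Oas1d stands 3.36 or more above the wild type mean in all 3 knockout hearts, and Gbp3 stands apart on knockout kidney a.

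The Oas family makes oligoadenylate messengers after binding double-stranded RNA, and all 6 of its genes were positive in heart, with a median of 0.37. Oas1d and Oas3 passed the filter only through the knockout hearts, which favours a positive sign. The 4 Oas genes above background on every heart were all positive, with a median of 0.36 and 0 called. With that filter 41.2% of all genes were positive. Oas1d, a mouse paralogue of Oas1a known from the ovary and reported to lack synthetase activity, had signals of -4.31, -4.38 and -5.42 in knockout hearts a, b and c, against -8.63, -9.00 and -8.71 in wild type hearts. It was well above background on all 3 knockout hearts and on 0 of 3 wild type hearts. The groups lay far apart, and the signal was at least 3.96-fold higher in knockout hearts, a bound set by the dimmest signal still measured on each wild type array (adjusted p of 0.00688 by limma, measured means -4.70 and -8.78). In kidneys it was not well above background on any array, with -9.25, -7.83 and -8.94 in knockouts and -8.87, -8.13 and -9.03 in wild types.

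The Oas1d call depended on few arrays, and it was lost under a background setting that damps dim probes. It held against the 3 wild type hearts with knockout heart c alone, which has no Xist signal (3.36, adjusted p of 0.0277 by limma, the lone knockout being assumed to vary like the wild types), and when the letters formed a replicate block (adjusted p of 0.0376 by limma). It ended without wild type heart b (adjusted p of 0.0501 by limma) or c (0.0502), and with normexp background correction it was 0.57 (0.306). The probe lies on chromosome 5 at positions 120155487 to 120155546 of build mm7, per the files, and is also annotated there with a transcript of Oas1h. The 2 probes named for Oas1h itself were not well above background on any of the 12 arrays.

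Oas3, the largest synthetase, had -4.98, -5.37 and -5.68 in knockout hearts, against -7.31, -6.85 and -6.10 in wild type hearts. The groups did not overlap, but with 1 of 3 wild type hearts above background the change of 1.41 ± 0.34 had an adjusted p of 0.171 by limma. Its second probe gave 1.21 with 0 of 3 wild type hearts above background. Oasl2, a synthetase-like protein with ubiquitin-like domains, had 1.02, 1.27 and 0.94 in knockout hearts, against 0.79, 0.66 and 0.73 in wild type hearts. The groups were apart by a small margin, with a change of 0.35 ± 0.14 (adjusted p of 0.312 by limma). Oas2 had -1.45, -1.85 and -1.0 in knockout hearts, against -1.79, -1.67 and -1.92 in wild type hearts, and the groups overlapped (0.36 ± 0.23). Oas1a, the main active form of Oas1 in mice, changed by 0.37 ± 0.19 without overlap, and Oasl1, which restrains Irf7 translation in mice, by 0.21 ± 0.18.

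Among 11 antiviral effectors measured in heart, 8 were positive with a median of 0.56, 5 had an unadjusted p under 0.05, and none was called. Ifi44, a cytoplasmic protein that limits several viruses, came nearest. Its signals were -2.33, -2.30 and -1.97 in knockout hearts, against -3.43, -3.23 and -3.18 in wild type hearts. All 3 knockouts were above all wild types, and the change of 1.08 ± 0.16 had an adjusted p of 0.0522 by limma. A second, dimmer Ifi44 probe gave 0.82 with 2 of 3 knockout hearts and 0 of 3 wild type hearts above background.

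Usp18, the protease that removes Isg15 from proteins and damps the interferon receptor, had 0.09, -0.06 and -0.84 in knockout hearts, against -1.14, -0.94 and -1.31 in wild type hearts. Its groups did not overlap, with knockout hearts a and b highest and c closest to the wild types (0.86 ± 0.27, adjusted p of 0.256 by limma). Isg15 had 0.45, 0.91 and 0.96 in knockout hearts, against 0.31, 0.34 and -0.01 in wild type hearts (0.56 ± 0.19, adjusted p of 0.283 by limma). The files place the 1 Isg15 probe on chromosome 17 (44534906 to 44534965 of build mm7), 820 kb from the Slc29a1 probe at 43714823 to 43714882, while RefSeq puts the Isg15 gene on chromosome 4. Which locus this probe reports cannot be told apart here.

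Ifit1, which binds viral RNA lacking a host cap, changed by 0.58 ± 0.21 without overlap in heart. Mx1, a dynamin-like GTPase that blocks influenza virus, changed by 0.90 ± 0.36 with overlapping groups. Rsad2, the radical enzyme viperin, had 0.78, 1.16 and 2.57 in knockout hearts, against 1.05, 0.72 and 0.72 in wild type hearts. Only knockout heart c stood out for it, and its 2 other probes had the same high array. Bst2, the membrane tether of budding virus, had 3.91, 4.75 and 4.33 in knockout hearts, against 4.29, 4.15 and 4.21 in wild type hearts (0.11 ± 0.23). Mx2 had -1.61, -1.49 and -1.35 in knockout hearts, against -1.60, -1.44 and -1.91 in wild type hearts (0.16 ± 0.17). Neither separated the groups, and Ifit2, Ifit3 and Ifi35 lay between -0.14 and -0.10.

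The interferon-inducible GTPases, which attack the vacuoles of intracellular pathogens, were positive for 3 of 6 in heart, with a median of 0.04. Ifi47 had 0.59, 1.27 and 0.22 in knockout hearts, against -0.13, -0.28 and -0.54 in wild type hearts. The groups did not overlap, and the change of 1.01 ± 0.29 had an adjusted p of 0.232 by limma. Igtp followed with 3.18, 3.31 and 3.85 in knockout hearts, against 3.13, 2.78 and 2.82 in wild type hearts (0.54 ± 0.22, no overlap, adjusted p of 0.312 by limma). Iigp1 had 1.74, 1.77 and 3.49 in knockout hearts, against 2.80, 2.35 and 2.37 in wild type hearts. Its knockouts lay on both sides of the wild types, a and b below and c above. Gbp3 had the same order, with 1.14, 1.22 and 2.22 in knockout hearts, against 1.85, 1.54 and 1.24 in wild type hearts. Gbp2 had 2.40, 2.77 and 3.02 in knockout hearts, against 2.92, 2.74 and 2.65 in wild type hearts (-0.04 ± 0.19), and Irgm1, which regulates the other GTPases of its family, changed by 0.09 ± 0.21.

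Of the 6 sensors and transcription factors, 5 were positive in heart and all changes lay between -0.10 and 0.33. Irf7, the factor that amplifies type I interferon, had -1.20, -0.99 and -1.09 in knockout hearts, against -1.54, -1.33 and -1.41 in wild type hearts. The groups did not overlap (0.33 ± 0.13, adjusted p of 0.312 by limma), nor did those of Stat2 (0.20 ± 0.13). Irf9, the DNA-binding partner of Stat2, changed by 0.24 ± 0.15 with overlap. Irf1, a factor induced mainly by interferon gamma, had 3.74, 3.82 and 3.94 in knockout hearts, against 3.92, 3.80 and 3.67 in wild type hearts. The RNA sensors Ddx58 (-0.10 ± 0.15) and Ifih1 (0.22 ± 0.32) also overlapped between the groups.

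**Figure D3:**
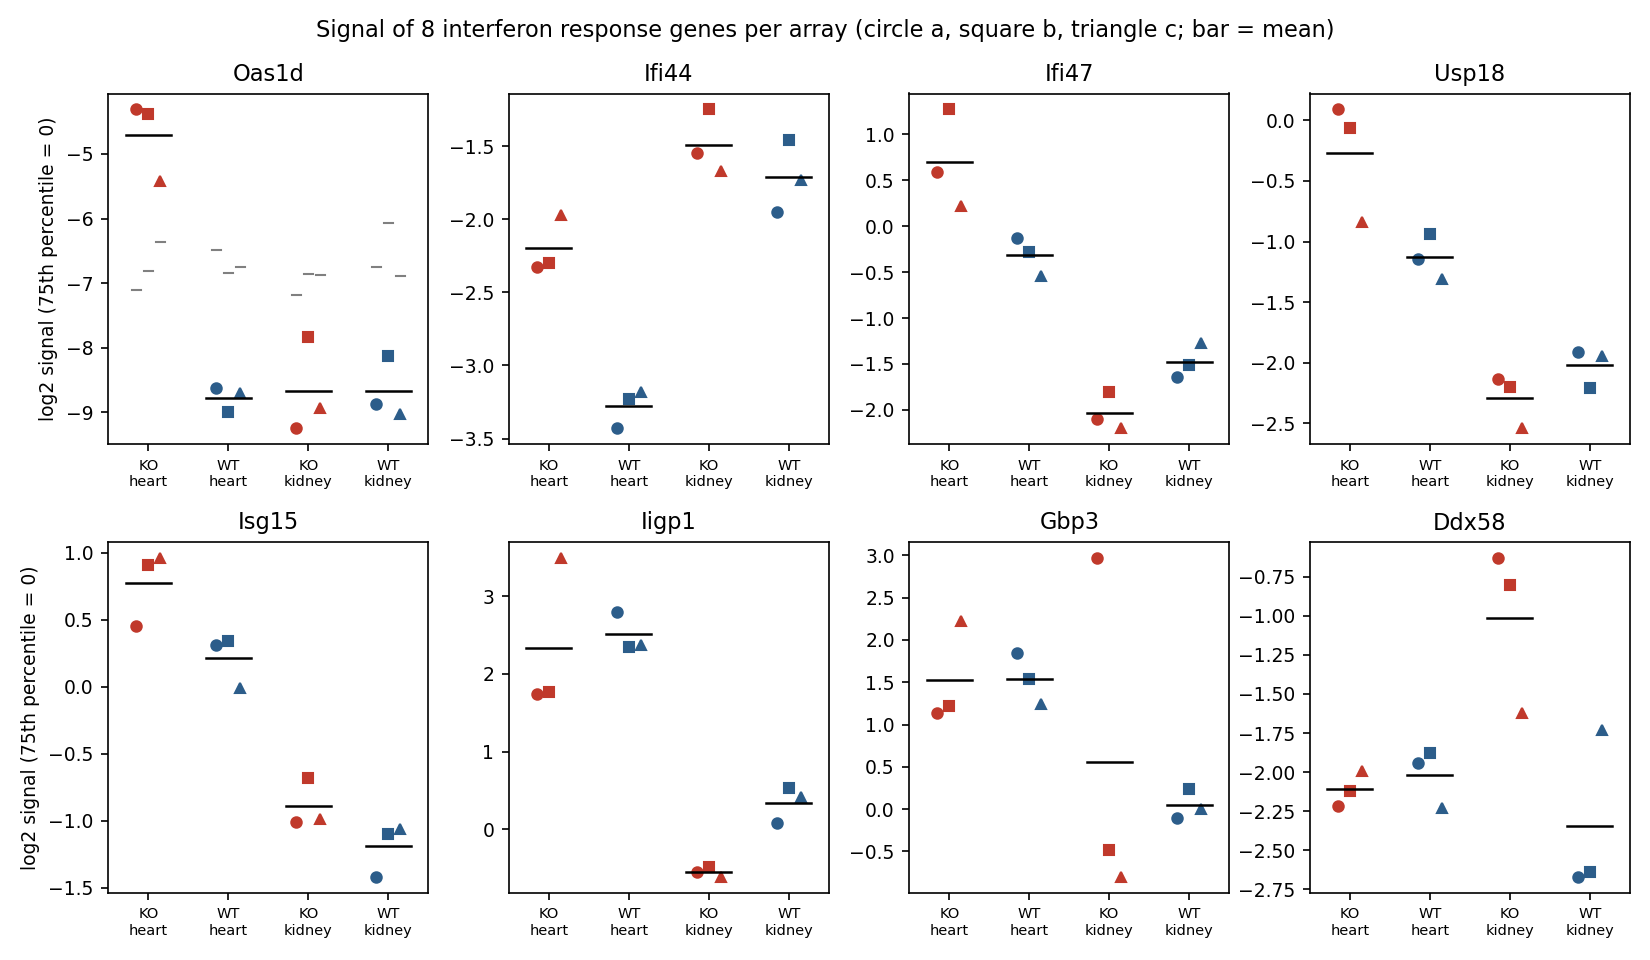
Log2 signal per array (y axis, the 75th percentile of each array at 0, a separate scale in each panel) of 8 interferon response genes in hearts (knockout, then wild type) and kidneys (knockout, then wild type). Circles, squares and triangles are letters a, b and c, black bars are means of 3 arrays, and the short grey lines for Oas1d mark the dimmest signal well above background on each array; Oas1d exceeds it only on the 3 knockout hearts.

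The 3 knockout hearts differed from each other in which genes were high. Relative to the mean of the wild type hearts, the median member stood at 0.06 for knockout a, 0.25 for knockout b and 0.41 for knockout c, where all genes had -0.12, -0.12 and 0.01. Knockout heart c was above every wild type heart for 24 of 29 members (27.3% of all genes), b for 16 (30.4%) and a for 14 (28.4%). Of the 6 hearts, c was the highest for 16 members, among them Rsad2, Iigp1, Igtp, Gbp2, Gbp3, Irgm1 and Isg15. Arrays a and b were highest for 9 others together, such as Usp18, Oas1d and Oas3 on a and Ifi47, Mx1 and Irf7 on b. The GTPases alone had a median of -0.28 in knockout heart a, -0.03 in b and 0.60 in c. Without knockout heart c, limma called Ifi44, Ifi47, Oas1d and Usp18, and 1979 genes in all.

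Genes of other tissues also differed between the hearts. The 11 thymocyte and lymphocyte markers summed to 115 in knockout heart a (11 above background), to 246 in b (11) and to 1.78 in c (9), against 1.08 to 2.13 in wild type hearts (9 each). The thymocyte genes Rag1 and Ptcra were above background on knockout hearts a and b only. Those arrays are also the hearts with Xist signal. Oas1d, the member called, was higher on them (-4.31 and -4.38) than on knockout heart c (-5.42). So were Oas3, Oasl2, Ifit1, Usp18, Ifi47 and Mx1, while Rsad2, Iigp1, Igtp and Gbp3 were among those lower. The 8 liver markers summed to 3.47 to 5.71 on knockout hearts (7 above background on each) and 0.226 to 0.536 on wild type hearts (3 to 5), and Ttr was not above background on any heart. The highest liver sum of any array was 5.75, on knockout kidney a. The 7 lung and airway markers summed to 207 on knockout heart a and to 0.0807 to 1.47 on the other hearts. Macrophage and neutrophil markers summed to 18.2 to 19.2 on knockout hearts and 16.2 to 29.8 on wild type hearts, with all 8 above background on each. Endothelial markers summed to 26.2 to 36.4 on knockout hearts and 38.5 to 39.4 on wild type hearts, with all 6 above background. Of the 3 markers of plasmacytoid dendritic cells, a main source of type I interferon, Siglech stood at -5.48, -4.95 and -7.02 in knockout hearts, against -5.44, -5.69 and -6.37 in wild type hearts. Pacsin1 stood at -0.87, -0.53 and -1.07 in knockout hearts, against -0.59, -0.24 and -0.24 in wild type hearts. Ccr9, which thymocytes also carry, was high on knockout hearts a (1.61) and b (2.68). The part of any of these cell types or tissues in the interferon gene values was not tested. With both knockout hearts that carry thymocyte signal left out, 27 of 29 members were positive on knockout heart c, with a median of 0.41. That array had the highest liver sum of the hearts (5.71).

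**Figure D4:**
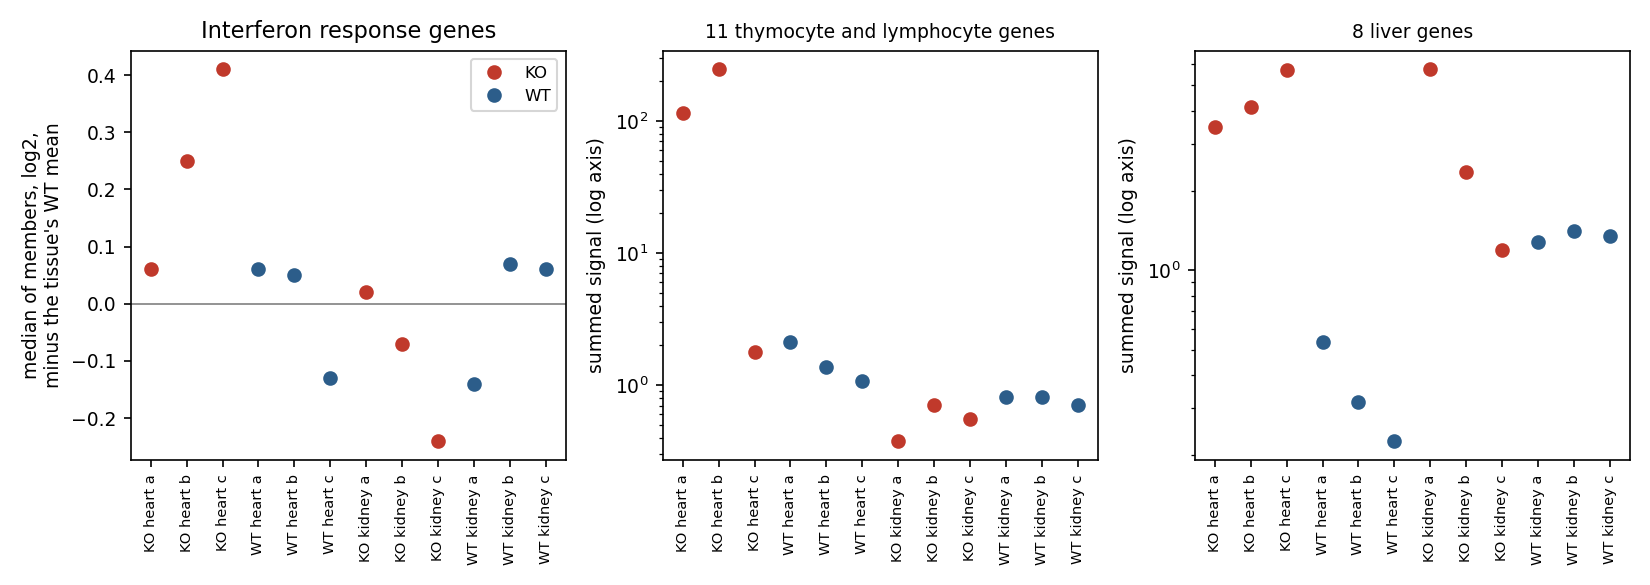
Left, the median over interferon response genes of the log2 signal on each array minus the wild type mean of its tissue (29 genes in heart, 26 in kidney). Middle and right, the summed signal of 11 thymocyte and lymphocyte genes and of 8 liver genes on each array (log axes). Red points are knockouts and blue points wild types. Knockout heart c, with the highest member median, has no raised thymocyte sum and the highest liver sum of the hearts. The part of either tissue in the medians was not tested.

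In knockout kidneys the changes lay on both sides of 0. Of 26 genes tested, 12 were positive and 14 negative, the median was -0.11, against -0.07 for all 17228 genes tested. With normexp 18 were positive, the 4 Oas genes among them, with a median of 0.25, against 0.08 for all genes. In the fit without it 0 members were called by limma, where 0.163% of all genes were (0.029% higher and 0.134% lower) and 41.5% were positive. At an unadjusted p under 0.05 there were 1 higher and 4 lower members, where 13.2% of all genes passed and 5.69% were higher. The groups did not overlap for 8 members, 2 higher and 6 lower, where 21.5% of all genes did not overlap and 8.79% were higher. Oas1d, Oas3 and Mx1 were not well above background on all 3 arrays of either group and were not tested. On the 1 slide shared by both genotypes (arrays b and c of the knockouts, a and b of the wild types) the median was -0.13, and with slide as a block -0.07, again with 0 members called.

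Iigp1 had the largest negative change in kidney. It stood at -0.55, -0.49 and -0.61 in knockout kidneys, against 0.08, 0.53 and 0.41 in wild type kidneys. The groups did not overlap and the knockouts were tightly grouped, but the change of -0.89 ± 0.17 had an adjusted p of 0.113 by limma. Ifi47 was next among the GTPases, with -2.10, -1.81 and -2.20 in knockout kidneys, against -1.64, -1.51 and -1.27 in wild type kidneys (-0.56 ± 0.18, adjusted p of 0.260 by limma). Igtp (-0.33 ± 0.17) was also without overlap. Gbp2 had 0.14, -0.08 and -0.30 in knockout kidneys, against -0.09, 0.15 and 0.25 in wild type kidneys. Gbp3 gave 2.97 on knockout kidney a, -0.48 on b and -0.80 on c, against -0.11, 0.24 and 0.00 in wild type kidneys. A single array was high for it, and the mean change of 0.52 ± 0.94 describes none of the 3.

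Of 10 antiviral effectors tested in kidney, 6 were positive with a median of 0.17. Mx2 had -3.62, -3.32 and -3.67 in knockout kidneys, against -3.23, -2.91 and -3.06 in wild type kidneys (-0.47 ± 0.17, no overlap, adjusted p of 0.322 by limma). Ifi44 had -1.55, -1.25 and -1.67 in knockout kidneys, against -1.95, -1.46 and -1.73 in wild type kidneys, so its groups overlapped (0.22 ± 0.20). Bst2 had 2.0, 2.07 and 1.95 in knockout kidneys, against 2.0, 2.42 and 1.98 in wild type kidneys (-0.12 ± 0.18). Ifit1 (0.47 ± 0.36), Ifit2 (0.33 ± 0.18) and Ifit3 (0.41 ± 0.22) were positive and overlapped, and Isg15 was higher without overlap (0.30 ± 0.18). Probes of 1 gene disagreed here in size. The brightest Rsad2 probe gave 0.11 and the 2 dimmer ones 1.07 and 1.06, the second Ifit2 probe gave 1.87 and the second Ifit3 probe 0.82. The dimmer Ifi44 probe gave -1.09, against the direction of the brighter one.

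The Oas genes tested in kidney were near 0, with 1 of 4 positive. Oasl2 had -1.77, -2.26 and -2.42 in knockout kidneys, against -1.91, -1.72 and -1.66 in wild type kidneys (-0.39 ± 0.21), and Oas2 had -4.52, -5.24 and -5.52 in knockout kidneys, against -5.47, -5.12 and -5.10 in wild type kidneys. Both groups overlapped. Ddx58 had the largest positive change of the sensors, with -0.63, -0.80 and -1.62 in knockout kidneys, against -2.67, -2.64 and -1.73 in wild type kidneys (1.33 ± 0.36, adjusted p of 0.195 by limma). Its 3 other probes gave -0.01, 0.28 and 0.31, so the size rests on 1 probe. Irf1 had 1.78, 1.92 and 1.74 in knockout kidneys, against 2.11, 2.28 and 2.13 in wild type kidneys, without overlap (-0.36 ± 0.15, adjusted p of 0.365 by limma). Its second probe gave 0.07. Irf7 had -3.21, -2.90 and -2.94 in knockout kidneys, against -2.62, -3.20 and -2.63 in wild type kidneys (-0.20 ± 0.21).

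The effect in heart minus that in kidney was positive for 23 of 29 members, where 52.4% of all 18502 genes were positive, with a median of 0.40, against 0.03 for all genes. With normexp 16 were positive with a median of 0.04, against -0.16 for all genes, and 2 of 6 Oas genes were positive. Oas1d, Oas3 and Mx1 were not well above background on any kidney for the probe used, so their kidney changes are not measured and their differences are no more than fitted values. With that limit Oas1d was called (4.07 ± 0.58, adjusted p of 0.0151 by limma), where 0.632% of all genes were, 0.557% higher and 0.0757% lower. At an unadjusted p under 0.05 there were 9 higher and 1 lower members, where 14.6% of all genes passed and 8.55% were higher. That call by limma ended when wild type heart b (adjusted p of 0.0517) or c (0.0519) was left out, with normexp (-0.33, adjusted p of 0.879) and with slide as a random block (0.0696), an alternative chosen after seeing the data. The next smallest adjusted p was that of Ifi47, whose difference was 1.57 ± 0.36 (adjusted p of 0.0949 by limma), with a heart change of 1.01 and a kidney change of -0.56. Usp18 (1.13 ± 0.34, adjusted p of 0.186 by limma) did not pass either. Without knockout heart c, limma called Ifi47, Mx1, Oas1d and Usp18. Leaving that array out also raised the calls among all heart genes, as given above. The added calls are therefore not read as a result about the members.

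Wild type hearts carried more signal of this group than wild type kidneys. Of 27 members tested, 21 were higher and 1 lower in heart, where 64.5% of all 17985 genes tested were called, 34.2% higher and 30.3% lower. The median difference, heart minus kidney, was 1.21, against 0.07 for all genes, and 24 members were positive, where 52.5% of all genes were. The groups did not overlap for 25 members, 23 of them higher, where 71.6% of all genes did not overlap and 37.5% were higher. All wild type hearts lay on a slide of their own, so slide and tissue cannot be told apart in this comparison. With slide as a random block 25 members were called, but no slide held both wild type tissues, so that block cannot remove a slide effect. Oas2 differed most, with -1.79, -1.67 and -1.92 in wild type hearts, against -5.47, -5.12 and -5.10 in wild type kidneys (3.43 ± 0.16, adjusted p of 1.7e-06 by limma). Oasl2 (2.49 ± 0.13), Oas1a (1.74 ± 0.17) and Oasl1 (0.52 ± 0.18) were higher as well, which made 4 of 4 Oas genes tested.

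Among the GTPases 4 of 6 were higher in wild type heart. Gbp2 had 2.92, 2.74 and 2.65 in wild type hearts, against -0.09, 0.15 and 0.25 in wild type kidneys (2.67 ± 0.15, adjusted p of 4.86e-06 by limma), and Iigp1 (2.17 ± 0.19), Gbp3 (1.5 ± 0.19) and Ifi47 (1.16 ± 0.17) passed too. Igtp (0.45 ± 0.17) and Irgm1 (-0.36 ± 0.14) did not pass. Bst2 led the effectors, with 4.29, 4.15 and 4.21 in wild type hearts, against 2.0, 2.42 and 1.98 in wild type kidneys (2.09 ± 0.16). Mx1 was at least 1.55-fold higher in wild type heart, with 0 of 3 wild type kidneys above background. Ifi44 alone was lower in heart, with -3.43, -3.23 and -3.18 in wild type hearts, against -1.95, -1.46 and -1.73 in wild type kidneys (-1.57 ± 0.17, adjusted p of 0.000136 by limma). Irf1 led the sensors and transcription factors (1.62 ± 0.14), and 5 of those 6 were higher, with Ddx58 (0.33 ± 0.27) below the threshold. Macrophage and neutrophil markers summed to 16.2 to 29.8 on these hearts and 4.09 to 5.37 on these kidneys, endothelial markers to 38.5 to 39.4 and 5.53 to 8.22, and their part in the difference was not tested.

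**Figure D5:**
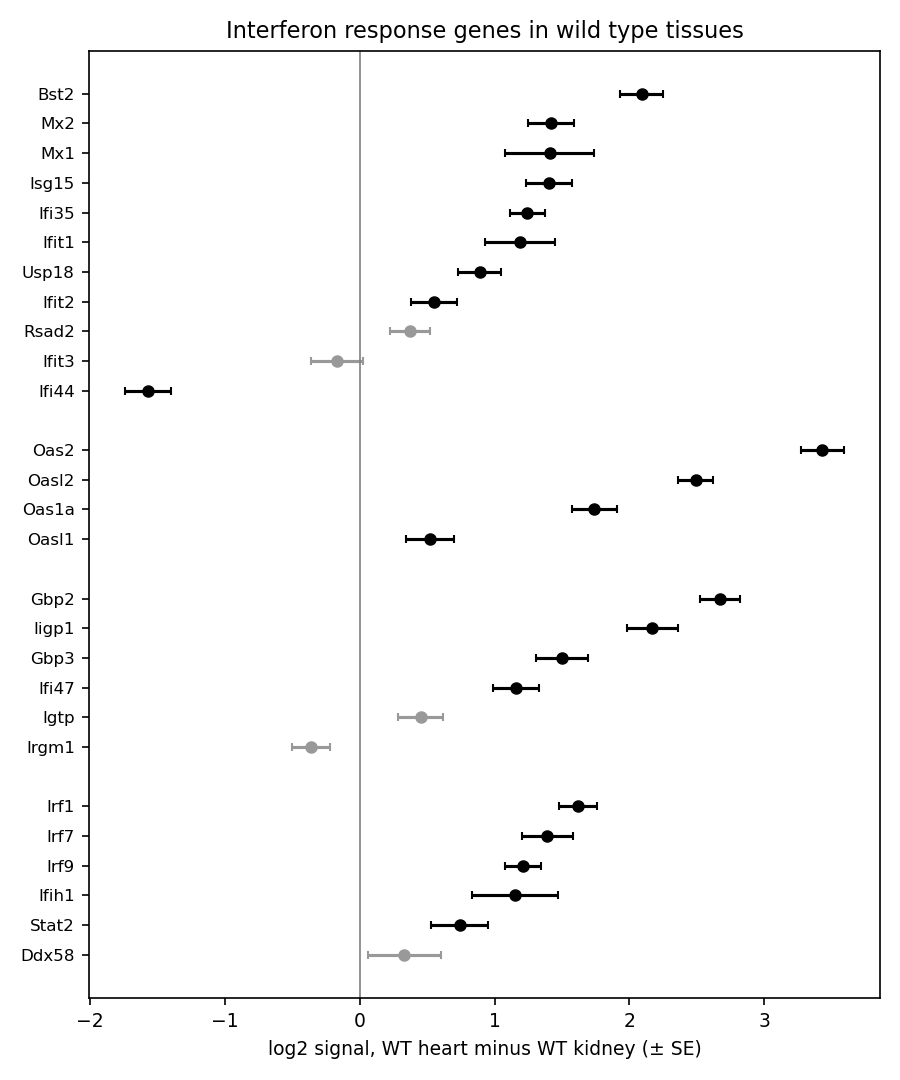
Difference in log2 signal between wild type heart and wild type kidney (x axis, heart minus kidney) for the 27 interferon response genes tested, with bars of 1 SE from 3 arrays against 3 and genes grouped by role from top to bottom. Black points passed an adjusted p under 0.05 by limma and grey points did not; 21 black points lie above 0, and Ifi44 lies at -1.57.

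Other parts of the pathway were read from 55 further genes, 53 of them on the array and 49 tested in each comparison. Not all are upstream, since 24 of the 49 are genes that interferon induces. The rest are ligands, receptors, signal transducers, negative regulators and genes that lead to interferon production. Of the 24 induced genes, 16 were positive in heart and 6 in kidney. In heart 31 of 49 were positive (42.2% of all genes) and in kidney 12 (41.5%), and limma called 0 in either tissue, where 0.664% of all genes were called in heart and 0.163% in kidney. At an unadjusted p under 0.05 heart had 8 higher and 1 lower (15.7% of all genes passed) and kidney 1 higher and 8 lower (13.2%). Of the interferons themselves, Ifnb1, Ifna2, Ifna4 and Ifnk were not tested for lack of signal, and Ifng had -4.10, -3.35 and -4.13 in knockout hearts, against -3.77, -5.02 and -5.23 in wild type hearts. The 5 receptor chains lay between -0.62 and 0.28 in heart and between -0.46 and 0.11 in kidney. Socs1, which blocks the receptor kinases, had 2.34, 3.38 and 0.07 in knockout hearts, against 0.11, -0.06 and -0.25 in wild type hearts, so its change of 2.0 ± 0.79 came from arrays a and b. Cxcl9, a chemokine induced by interferon gamma, changed by 1.55 ± 0.37 in heart (adjusted p of 0.167 by limma) and -0.45 ± 0.16 in kidney.

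For heart minus kidney, 16 of the 49 pathway genes had an unadjusted p under 0.05 by limma, where 14.6% of all genes passed. Of these, 14 were higher and 2 lower, and Cxcl9 differed by 2.01 ± 0.43 (adjusted p of 0.0819 by limma). Zbp1, a sensor of left-handed nucleic acids that can start necroptosis, was the 1 pathway gene called, where 0.632% of all genes were. It had 0.40, 0.93 and -0.19 in knockout hearts, against -0.98, -1.13 and -1.15 in wild type hearts, and -3.46, -3.46 and -3.73 in knockout kidneys, against -2.76, -2.66 and -2.63 in wild type kidneys. In both tissues the groups lay apart, knockouts above in heart and below in kidney. Neither change was called alone (1.47 ± 0.28 in heart, adjusted p of 0.104 by limma, and -0.87 ± 0.16 in kidney, 0.1), while their difference was (2.33 ± 0.33, adjusted p of 0.0153 by limma). That call ended without wild type heart b (0.0525), wild type heart c (0.0626) or wild type kidney b (0.0529), with normexp (1.16, 0.756) and with slide as a random block (0.0895). Between wild type tissues 28 of the 49 were higher and 7 lower in heart, where 34.2% of all genes were higher and 30.3% lower, among them Isg20 (3.47 ± 0.18), Ifi204 (2.91 ± 0.22) and Ifngr2 (2.63 ± 0.17), which were higher.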

How the data were processed

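The arrays were scanned and read with Agilent Feature Extraction, version 9.5.3.1 per the file headers and 9.1 per the submitters' processing notes, with probe positions on build mm7. The deposited scanner files give each spot's processed intensity after background subtraction, per the file headers. The authors' table of processed values holds log2 values of the same arrays, centred per probe within each tissue as the values show, with column medians between -0.176 and 0.199. It was used as an alternative only, each column taken as the array it follows, and how it was scaled is not given in the sources used here.

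From these, log2 of the processed intensity minus the 75th percentile of each array was computed over non-control probes. Spots marked as outliers were left out and repeated spots averaged, giving 41174 probes from 43379 spots. A probe was tested when well above background on all 3 arrays of a group, and each gene was read from its brightest tested probe. Probes were named through RefSeq by accession (22951), symbol (6659) or synonym (3109), and 8455 kept the name in the files. limma 3.58.1 in R 4.3.3 was fitted across all genes with Benjamini-Hochberg adjustment. Between 60.64% and 70.82% of probes were well above background on each array, and the number of arrays limits the precision: an exact two-sided permutation test of 3 against 3 cannot go below 0.1. On simulated heart arrays of 17483 genes the fit called 22% of genes changed by 1 on the log2 scale and 66% of those changed by 2, and for 17228 kidney genes 19% and 83%.

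Same-letter hearts deviated together (correlations of 0.372, 0.175 and 0.267), so the letters count as pairs in heart by that check, and same-letter kidneys did not (0.175, 0.055 and -0.179). The values given come from fits without the letters unless a block is named. The members and lists were chosen with earlier results of these data known. Values on every array were given for members called between genotypes or between their tissue effects, and for the member of each role with the largest change in heart, in kidney and between wild type tissues. Values of Usp18, Isg15, Rsad2, Oas3, Igtp, Gbp3 and the other pathway genes were added after being seen. Alternatives were quantile and median scaling, normexp with an offset of 50, other filters, every probe, letter and slide as blocks, sex by Xist, the deposited table and leaving out each array. Some pathway genes are not reported here by name.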

Additional observations from a re-analysis of the deposited data

Results flagged for a closer look

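By the interaction term of limma, the fitted change of Oas1d in heart minus that in kidney was 4.07 ± 0.58 (adjusted p of 0.0151). Oas1d was well above background on 3 of 3 knockout hearts and on 0 of 3 arrays in each other group, so its kidney change is not measured, the value is not a measured difference between tissue effects, and the probe was tested only through the knockout hearts.

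Zbp1 differed in the same test by 2.33 ± 0.33 (adjusted p of 0.0153 by limma), and it was higher in 3 of 3 knockout hearts than in any wild type heart and lower in 3 of 3 knockout kidneys than in any wild type kidney.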

How the results depend on the processing

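Of 96 repeats of the counts and medians 81 were labelled the same. A count was so labelled when equal or similar in size to the main count, a median when it moved by no more than the spread between arrays. Of 776 repeats for named genes 759 kept their side of the threshold. Counts that stayed at 0 and genes that stayed uncalled are included, so these tallies say little about the calls themselves. In heart the 1 member called became 0 with normexp and 0 with a filter on every array, and 0 to 4 when single arrays were left out. All genes called in heart numbered 116, against 17 with normexp, 27 with the filter on every array, 60 with quantile normalization and 23 to 1979 with an array left out. The heart median of 0.24 moved to 0.07 with median scaling and to 0.41 both on arrays without Xist signal and with sex as a covariate, which use the same single knockout heart, and ranged over 0.15 to 0.34 with an array left out. The kidney median of -0.11 moved to 0.25 with normexp and to 0.01 with every probe counted. For heart minus kidney the count was 0 with normexp, 0 with slide as a random block (an alternative chosen after seeing the data) and 0 to 4 with an array left out, and Oas1d was -0.33 there with normexp, which reversed its sign; the cause was not tested. With the letters as a replicate block the members called were 1 in heart, 0 in kidney, 1 for heart minus kidney and 21 between wild type tissues, with 55, 2, 55 and 10944 genes in all, against 116, 28, 117 and 11603 without it. Letters could not be shown to pair kidneys, or hearts with kidneys. Slide as a block gave 161 genes in kidney. Signal over background limits Oas1d, well above it on no array but the knockout hearts, while Oas1a, Oas2, Oasl1 and Oasl2 were above it on all 12 arrays.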
